A study of Mus musculus with 12 samples.

Results

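The genes described here are 8 leukocyte adhesion and surface genes, found by symbol among the 16482 genes of the count table. They comprise 4 integrin chains (Itgam, Itgb2, Itgal and Itga4), 2 adhesion ligands (Icam1 and Vcam1) and 2 pan-leukocyte surface genes (Ptprc and Cd52). All 8 were among the 12623 genes with enough counts to be tested. RNA was taken from whole-brain homogenates of C57BL/6 mice in 12 samples. The groups were CBE together with GZ-667161 (4 samples, postnatal day 40), CBE (4 samples, of which replicates 2 and 3 were of day 34 and replicates 4 and 6 of day 40) and PBS (4 samples, day 40). The labels give no doses or schedules. They also do not tie samples to individual mice, and the p-values then measure only the spread among the samples, some of which may be technical. Conduritol B epoxide (CBE) inhibits the lysosomal enzyme glucocerebrosidase and is used in mice to model neuronopathic Gaucher disease. GZ-667161 inhibits glucosylceramide synthase and thereby lowers the supply of the substrate of that enzyme. The labels name no genetic change, so the groups differ in the agents given, in CBE also in age, and, as the data below show, in the balance of the sexes.

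Integrins are pairs of an α and a β chain that let leukocytes hold on to vessel walls and to each other. The β2 chain, encoded by Itgb2, pairs with the α chain of Itgal to form LFA-1 and with that of Itgam to form Mac-1, also known as complement receptor 3, which microglia carry throughout the brain. The α chain of Itga4 pairs with a β1 chain to form VLA-4. LFA-1 and Mac-1 bind the cell-surface protein encoded by Icam1 and VLA-4 binds that of Vcam1, and inflamed endothelium displays both ligands, while astrocytes and other cells can make them too. Ptprc encodes the phosphatase CD45 and Cd52 a small glycosylated surface peptide, both carried by nearly all leukocytes.

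Total counts ran from 1753626 to 6499257 per library, and the 2 day 34 CBE libraries had the lowest totals. Xist counts exceeded those of Y-linked genes in 3 of 4 CBE+GZ-667161 libraries, in 0 of 4 CBE libraries and in 2 of 4 PBS libraries, so the sexes were not balanced. The 12 microglia markers summed to 1170 to 1960 CPM (counts scaled to library size with TMM factors) in CBE+GZ-667161, to 1590 to 2770 CPM in CBE and to 623 to 696 CPM in PBS. Within CBE the sum was 1590 and 1640 CPM at day 40 and 2270 and 2770 CPM at day 34. The 14 endothelial markers summed to 623 to 789, 659 to 784 and 581 to 688 CPM in CBE+GZ-667161, CBE and PBS. In bulk samples, more cells of a type and more RNA per cell cannot be told apart.

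CBE was compared with PBS to ask which of these genes accompany inhibition of the enzyme. Of the 8 genes, 6 rose and 0 fell (edgeR's quasi-likelihood test, Benjamini-Hochberg adjusted p under 0.05), with Cd52, Itgb2, Icam1, Ptprc, Itgal and Itgam higher in CBE. Of all tested genes 6.95% were called higher and 4.04% lower. In edgeR 7 of the 8 genes had an unadjusted p under 0.05, all of them higher. Of the 12623 tested genes, 3133 had such a p in either direction. DESeq2 called 7 of the 8 genes and limma-voom 5, where they called 1638 and 1383 of the 12623 tested genes in either direction. The median log2 fold change of the 8 genes was 2.42, against -0.01 over all tested genes. Itgal passed the filter on low counts through the samples given CBE, and its call was the same without that filter. In 5 of the 8 genes, all of those called except Itgam, every CBE sample lay above every PBS sample, as in 8.61% of tested genes.

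**Figure D1:**
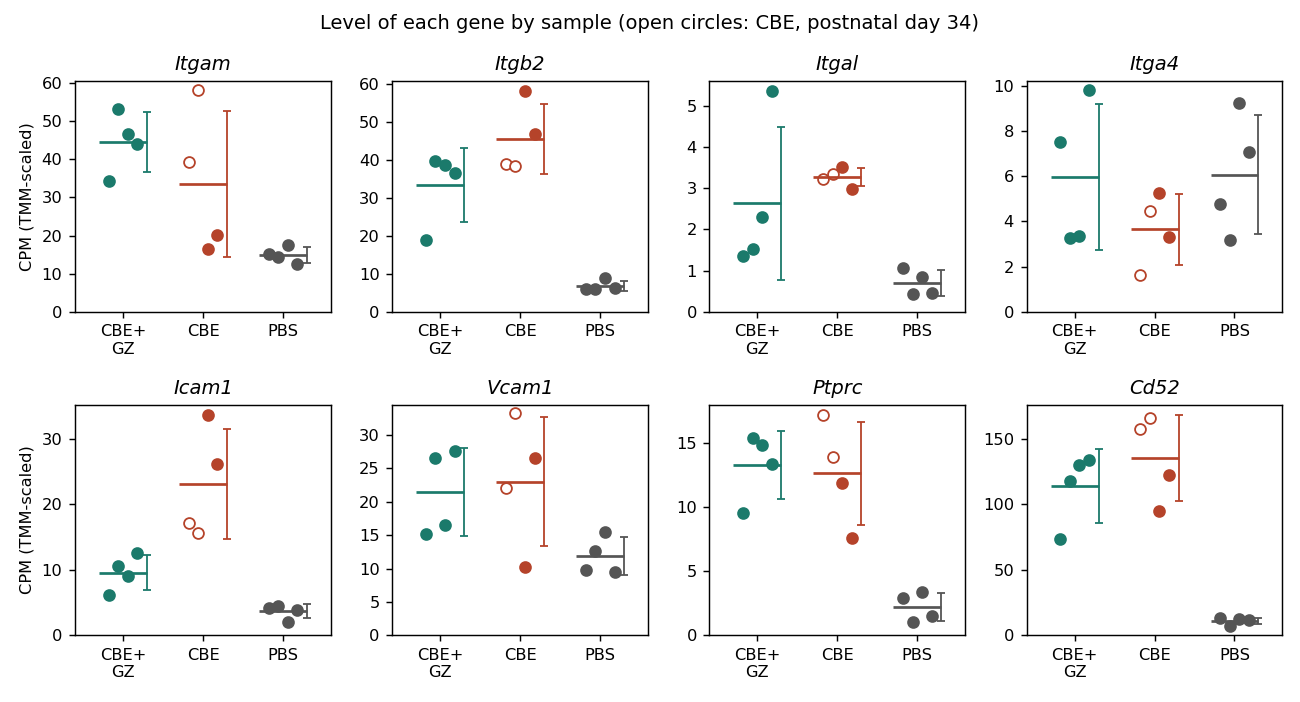
Level of each of the 8 genes (CPM, linear axis from 0) in the 4 samples of CBE+GZ-667161 (green), CBE (red) and PBS (grey), with the group mean as a horizontal line and the SD as a bar beside it; open circles are CBE samples of day 34. Cd52, Ptprc and Itgb2 are above all PBS samples in all 8 samples given CBE, Itgam splits by day within CBE, and Icam1 is higher in all CBE samples than in all CBE+GZ-667161 samples.

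Of the 8 genes the pan-leukocyte gene Cd52 had the largest fitted change. Cd52 (mm10 chromosome 4, 134082448 to 134095082) stood at 157 and 166 CPM in CBE replicates 2 and 3 and at 94.9 and 122 CPM in replicates 4 and 6, against 13, 7.45, 12.6 and 11.4 CPM in PBS replicates 2, 3, 4 and 5. The lowest CBE sample was far above the highest PBS sample. The log2 fold change was 3.61 ± 0.24 (SE; edgeR adjusted p = 1e-07), or 12.25-fold. The gene overlaps Crybg2 on the opposite strand, and use of the strand in counting is not stated in the labels, so reads of the pair cannot be told apart. Ptprc (chromosome 1, 138062861 to 138175708) had 17.2, 13.9, 11.9 and 7.62 CPM in CBE replicates 2, 3, 4 and 6, against 2.91, 1.06, 3.35 and 1.54 CPM in PBS replicates 2, 3, 4 and 5. Its groups did not overlap, and its log2 fold change was 2.58 ± 0.36 (edgeR adjusted p = 0.00013). In PBS, Ptprc rested on 5 to 11 counts per library.

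Both chains of Mac-1 rose, with a larger fitted change for the shared β2 chain than for its α partner; their ratio is tested further on. Itgb2 (chromosome 10, 77530252 to 77565708) had 38.8, 38.3, 58.1 and 46.7 CPM in CBE replicates 2, 3, 4 and 6, against 6.09, 5.96, 8.80 and 6.15 CPM in PBS replicates 2, 3, 4 and 5. Every CBE sample was well above PBS, with a log2 fold change of 2.80 ± 0.25 (edgeR adjusted p = 8.8e-07). Itgam (chromosome 7, 128062640 to 128118491) had 39.3 and 58.3 CPM in the day 34 CBE replicates 2 and 3 but 16.5 and 20.2 CPM in the day 40 replicates 4 and 6, against 15.1, 14.3, 17.6 and 12.5 CPM in PBS replicates 2, 3, 4 and 5. CBE replicate 4 thus lay within the PBS range and CBE replicate 6 just above it. The log2 fold change of Itgam was 1.15 ± 0.31 (edgeR adjusted p = 0.023). With the CBE samples of day 40 alone it was 0.32 and did not pass (edgeR adjusted p = 0.386), and the call was also lost without CBE replicate 2, CBE replicate 3 or PBS replicate 5 (edgeR adjusted p = 0.0629, 0.0766 and 0.063). With a term for Xist-high libraries the adjusted p of Itgam in edgeR was 0.0606.

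The α chain of LFA-1 was the least counted of the 8 genes. Itgal (chromosome 7, 127296260 to 127335138) had 6, 6, 10 and 9 counts in CBE replicates 2, 3, 4 and 6, equal to 3.23, 3.33, 3.50 and 2.98 CPM, against 4, 2, 2 and 3 counts in PBS replicates 2, 3, 4 and 5, equal to 1.06, 0.43, 0.84 and 0.46 CPM. All CBE samples lay above all PBS samples at this low depth. The log2 fold change was 2.27 ± 0.54 (edgeR adjusted p = 0.012). When CBE was represented by its day 34 samples only, the adjusted p of Itgal in edgeR was 0.0992.

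The α chain of VLA-4 did not pass. Itga4 (chromosome 2, 79255426 to 79333123) had 1.62, 4.44, 5.25 and 3.31 CPM in CBE replicates 2, 3, 4 and 6, against 4.76, 3.19, 9.22 and 7.08 CPM in PBS replicates 2, 3, 4 and 5. The groups overlapped, and the log2 fold change of -0.67 ± 0.47 did not pass (edgeR adjusted p = 0.40). CBE replicate 2 had 3 counts of Itga4. The gene overlaps Cerkl on the opposite strand. In the GENCODE annotation Itgam and Ptprc also overlap Gm49368 and A130071D04Rik on the same strand. Icam1 and Vcam1 overlap Gm47079 and Gm43109 on the opposite strand. Unlike Crybg2 and Cerkl, these overlapping genes are not in the count table. Whether their reads entered the counts of Itgam, Ptprc, Icam1 and Vcam1 is not known.

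Of the 2 ligands Icam1 rose and Vcam1 did not pass. Icam1 (chromosome 9, 21015985 to 21028817) had 17.2, 15.6, 33.6 and 26.2 CPM in CBE replicates 2, 3, 4 and 6, against 4.23, 4.47, 2.09 and 3.85 CPM in PBS replicates 2, 3, 4 and 5. Its groups were far apart, with a log2 fold change of 2.62 ± 0.31 (edgeR adjusted p = 2e-05), or 6.16-fold. Vcam1 (chromosome 3, 116109949 to 116129688) had 22.1, 33.3, 10.2 and 26.5 CPM in CBE replicates 2, 3, 4 and 6, against 9.79, 12.6, 15.5 and 9.54 CPM in PBS replicates 2, 3, 4 and 5. CBE replicate 4 lay among the PBS samples and the other 3 CBE samples above them. The log2 fold change of Vcam1 was 0.96 ± 0.31 and did not pass (edgeR adjusted p = 0.058). It passed without CBE replicate 4, at 1.23 (edgeR adjusted p = 0.00684), with CBE limited to day 34, at 1.27 (edgeR adjusted p = 0.0228), and in DESeq2 (adjusted p = 0.0257).

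Promoter sequence is shown for Icam1, which differed in all 3 group comparisons, and for Itgam and Itga4, 2 α chains of which the first rose and the second did not pass. RefSeq promoters (GRCm38.p6) were matched for 4 of the 8 genes, these 3 and Ptprc, and the 250 bases before the start are printed 5′ to 3′ on the plus strand. The windows are chr9:21015690-21015939 for Icam1, chr7:128062390-128062639 for Itgam and chr2:79255176-79255425 for Itga4. Capitals mark matches on either strand to 3 motifs: GAGGAA (an ETS core of the kind PU.1 binds), TTCNNNGAA (a STAT core) and GGNNNTTCC (an NF-κB-type core). The motifs were picked with the sequences in view.
Icam1: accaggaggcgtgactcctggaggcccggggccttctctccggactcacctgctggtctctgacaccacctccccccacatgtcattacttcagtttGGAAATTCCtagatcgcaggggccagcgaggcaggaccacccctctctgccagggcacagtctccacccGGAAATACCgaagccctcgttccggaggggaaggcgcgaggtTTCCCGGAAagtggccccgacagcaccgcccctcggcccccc
Itgam: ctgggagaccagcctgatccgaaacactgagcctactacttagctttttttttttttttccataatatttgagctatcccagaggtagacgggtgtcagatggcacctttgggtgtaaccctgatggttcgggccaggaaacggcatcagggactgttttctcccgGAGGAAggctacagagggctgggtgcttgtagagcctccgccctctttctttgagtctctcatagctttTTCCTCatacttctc
Itga4: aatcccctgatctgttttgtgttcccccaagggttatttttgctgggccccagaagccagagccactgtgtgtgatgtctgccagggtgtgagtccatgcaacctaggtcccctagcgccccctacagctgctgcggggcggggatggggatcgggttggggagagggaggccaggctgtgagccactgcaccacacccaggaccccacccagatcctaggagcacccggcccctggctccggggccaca

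The Icam1 window holds GGAAATTCC at -153 to -145 and GGAAATACC at -84 to -76, both matches to the NF-κB-type core, and TTCCCGGAA at -42 to -34, a match to the STAT core, counted from the start. The Itgam window holds GAGGAA at -84 to -79 and its reverse complement TTCCTC at -15 to -10. The Itga4 window holds none of the 3 motifs, which says only that these letters are not in it. Of 32851 RefSeq promoter windows of the same length, 15.7% hold the NF-κB-type core, 7.02% the STAT core and 23.3% the ETS core. These matches describe the sequence and are not sites of binding.

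In the authors' deposited table, which gives PBS over CBE, 7 of the 8 genes had an adjusted p under 0.05. The seventh gene there was Vcam1, with a log2 value of -0.96 and an adjusted p of 0.025 in the authors' deposited table.

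**Figure D2:**
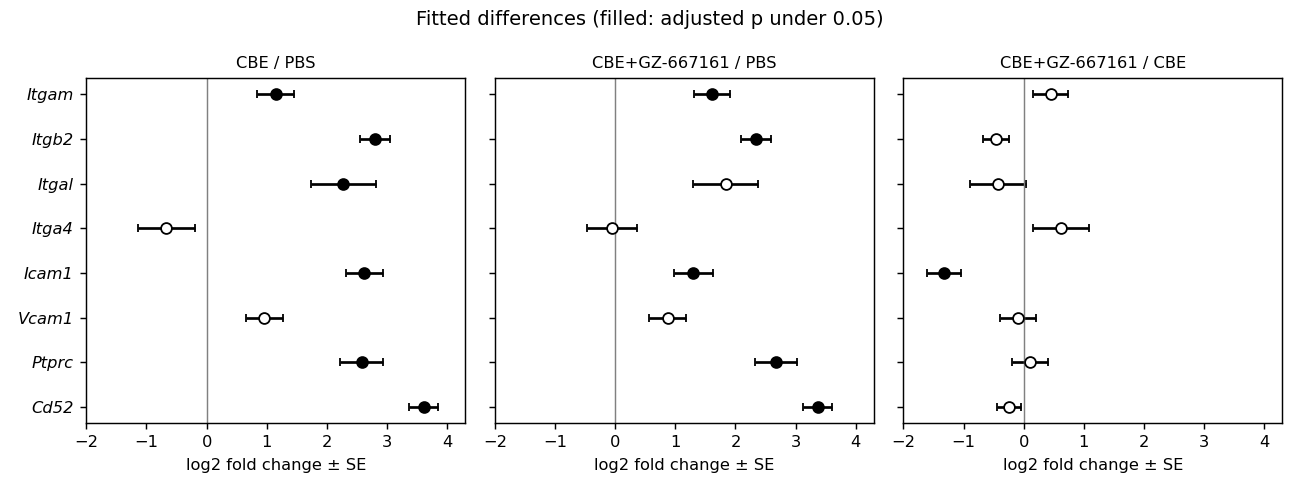
Log2 fold change ± SE (edgeR) of the 8 genes in CBE over PBS (left), CBE+GZ-667161 over PBS (middle) and CBE+GZ-667161 over CBE (right); filled points have an adjusted p under 0.05. Both comparisons with PBS lie to the right of 0 for all genes except Itga4, and Icam1 at -1.32 is the filled point on the right.

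CBE+GZ-667161 was compared with PBS to ask which of the genes stayed above PBS when substrate synthesis was inhibited as well. This comparison shares its PBS samples with the one above. Of the 8 genes, 5 rose and 0 fell, with Cd52, Itgb2, Ptprc, Itgam and Icam1 higher in CBE+GZ-667161, where 3.11% of all tested genes were called higher and 0.333% lower. In edgeR 7 of the 8 genes had an unadjusted p under 0.05, all of them higher. Of the 12623 tested genes, 1658 had such a p in either direction. DESeq2 called 5 of the 8 genes and limma-voom 4, where they called 570 and 425 of all tested genes in either direction. The median log2 fold change of the 8 genes was 1.72, against 0.00 over all tested genes. In 6 of the 8 genes every CBE+GZ-667161 sample lay above every PBS sample, as in 6.65% of tested genes. The sixth was Itgal, which was not called. It had 2 to 4 counts per PBS library and passed the filter on low counts through the samples given CBE.

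Cd52 had 73.2, 118, 130 and 134 CPM in CBE+GZ-667161 replicates 2, 3, 4 and 5, where PBS did not exceed 13 CPM. Its log2 fold change was 3.37 ± 0.24 (edgeR adjusted p = 3.8e-07). Ptprc had 9.54, 15.4, 14.9 and 13.4 CPM in CBE+GZ-667161 replicates 2, 3, 4 and 5, against at most 3.35 CPM in PBS. All 4 samples were well above PBS, with a log2 fold change of 2.68 ± 0.35 (edgeR adjusted p = 0.00011). Itgb2 had 18.9, 39.6, 38.7 and 36.5 CPM in CBE+GZ-667161 replicates 2, 3, 4 and 5, against at most 8.80 CPM in PBS. Replicate 2 was the low one in this group, and the log2 fold change was 2.34 ± 0.25 (edgeR adjusted p = 1.4e-05).

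Itgam, which was close to PBS in the day 40 CBE samples, was high in all CBE+GZ-667161 samples. It had 34.3, 53.3, 46.7 and 44.1 CPM in CBE+GZ-667161 replicates 2, 3, 4 and 5, against 12.5 to 17.6 CPM in PBS. The log2 fold change was 1.61 ± 0.30 (edgeR adjusted p = 0.0033). Icam1 had 6.13, 10.6, 9.0 and 12.5 CPM in CBE+GZ-667161 replicates 2, 3, 4 and 5, against at most 4.47 CPM in PBS. The samples did not overlap, and the log2 fold change of Icam1 was 1.30 ± 0.32 (edgeR adjusted p = 0.027). The Icam1 call was lost on leaving out any 1 of PBS replicates 2, 4 and 5 and of CBE+GZ-667161 replicates 3, 4 and 5 (edgeR adjusted p from 0.0515 to 0.085) and in limma-voom (adjusted p = 0.0821).

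Itgal had 6, 7, 11 and 12 counts in CBE+GZ-667161 replicates 2, 3, 4 and 5, equal to 1.36, 1.52, 2.30 and 5.35 CPM. All were above PBS, with replicate 5 well above the other 3, and the log2 fold change of 1.84 ± 0.54 did not pass (edgeR adjusted p = 0.083). Vcam1 had 15.2, 26.6, 16.5 and 27.6 CPM in CBE+GZ-667161 replicates 2, 3, 4 and 5, against 9.54 to 15.5 CPM in PBS. Replicate 2 fell within the PBS range, and the log2 fold change of 0.87 ± 0.30 did not pass (edgeR adjusted p = 0.17). Itga4 had 7.50, 3.25, 3.35 and 9.80 CPM in CBE+GZ-667161 replicates 2, 3, 4 and 5, against 3.19 to 9.22 CPM in PBS, so the groups overlapped. Its log2 fold change was -0.05 ± 0.42 (edgeR adjusted p = 0.98).

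CBE+GZ-667161 was compared with CBE to ask what the inhibitor changed in the presence of CBE. Icam1 was the gene among the 8 that passed, with lower values in CBE+GZ-667161, and 0 passed with higher values. Of all tested genes 0.832% were called lower and 0.444% higher. In edgeR 2 of the 8 genes had an unadjusted p under 0.05, both lower. Of the 12623 tested genes, 2085 had such a p in either direction. DESeq2 and limma-voom each called 1 of the 8 genes, where they called 489 and 210 of all tested genes in either direction. Icam1 had 6.13 to 12.5 CPM in CBE+GZ-667161 and 15.6 to 33.6 CPM in CBE, and the groups did not overlap, which occurred in the lower direction in 3.98% of tested genes. The log2 fold change was -1.32 ± 0.28 (edgeR adjusted p = 0.033), or 2.5-fold lower. With the age-matched CBE samples of day 40 alone it was -1.66 (edgeR adjusted p = 0.00658), and with those of day 34 alone -0.82 (edgeR adjusted p = 0.368). The call was lost on leaving out any 1 of CBE replicates 4 and 6 and of CBE+GZ-667161 replicates 2, 3 and 4 (edgeR adjusted p from 0.0793 to 0.125). It was also lost with a term for Xist-high libraries, where the value was -1.20 (edgeR adjusted p = 0.183). In the authors' deposited table, which gives CBE over CBE+GZ-667161, Icam1 had a log2 value of 1.33 with an adjusted p of 0.0024.

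The other 7 genes did not pass in CBE+GZ-667161 against CBE. Their log2 fold changes were 0.45 ± 0.29 for Itgam, -0.46 ± 0.22 for Itgb2, -0.43 ± 0.46 for Itgal, 0.62 ± 0.47 for Itga4, -0.10 ± 0.30 for Vcam1, 0.10 ± 0.30 for Ptprc and -0.24 ± 0.20 for Cd52 (SE; edgeR adjusted p from 0.30 to 0.91). For Itgam, Itgal, Itga4, Vcam1, Ptprc and Cd52 the standard errors leave room for a difference of either sign (edgeR unadjusted p from 0.14 to 0.76). For Itgb2 the unadjusted p in edgeR was 0.049. Against only the 2 CBE samples of day 40, Itgam was higher in CBE+GZ-667161, at 34.3 to 53.3 CPM against 16.5 and 20.2 CPM in CBE, a log2 fold change of 1.28 (edgeR adjusted p = 0.00661). Against only the 2 of day 34 it was -0.15 and did not pass (edgeR adjusted p = 0.841).

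Within CBE, the samples of day 40 were compared with those of day 34, with 2 samples each and the spread pooled over all groups. Itgam was the gene among the 8 that passed. It was lower at day 40, with 16.5 and 20.2 CPM at day 40 and 39.3 and 58.3 CPM at day 34, a log2 fold change of -1.43 ± 0.26 (edgeR adjusted p = 0.028), where 0.389% of 13372 tested genes were called lower and 0.224% higher. The call was lost without CBE replicate 3, 4 or 6 (edgeR adjusted p = 0.294, 0.255 and 0.0923) and in limma-voom (adjusted p = 0.0731). Itgb2 did not pass, with 58.1 and 46.7 CPM at day 40 and 38.8 and 38.3 CPM at day 34 (log2 fold change 0.42 ± 0.30, edgeR adjusted p = 0.54). Icam1 had 33.6 and 26.2 CPM at day 40 and 17.2 and 15.6 CPM at day 34 (0.84 ± 0.34, edgeR adjusted p = 0.26). Cd52 and Ptprc had log2 fold changes of -0.60 ± 0.26 and -0.70 ± 0.41 (edgeR adjusted p = 0.28 and 0.45). PBS samples were all of day 40, so age and length of exposure to CBE cannot be told apart here, and the 2 samples of day 34 were also the least deeply sequenced.

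The ratio of 2 genes within a library needs no scaling between libraries, and 3 pairs were compared over the 3 group comparisons (counts plus 1, exact two-sided permutation test, p adjusted over 9 tests). The ratio itself depends on how well each transcript is captured, so its difference between groups is what was tested. The log2 ratio of Itgb2 to Itgam was 0.59 ± 1.10 in CBE and -1.12 ± 0.16 in PBS (SD, n = 4 each). The groups did not overlap, with exact permutation p = 0.029, the smallest that 4 against 4 samples allow, and it was 0.086 when adjusted, so the difference of 1.71 did not pass. An adjusted p under 0.05 would have needed at least 6 of the 9 tests at that smallest p. In CBE the ratio was 1.80 and 1.20 in the day 40 replicates 4 and 6 and -0.02 and -0.60 in the day 34 replicates 2 and 3. CBE+GZ-667161 had a ratio of Itgb2 to Itgam of -0.45 ± 0.28, also above all PBS samples (difference 0.66, exact permutation p = 0.029, adjusted 0.086), and it overlapped with CBE (difference -1.05, exact permutation p = 0.14).

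**Figure D3:**
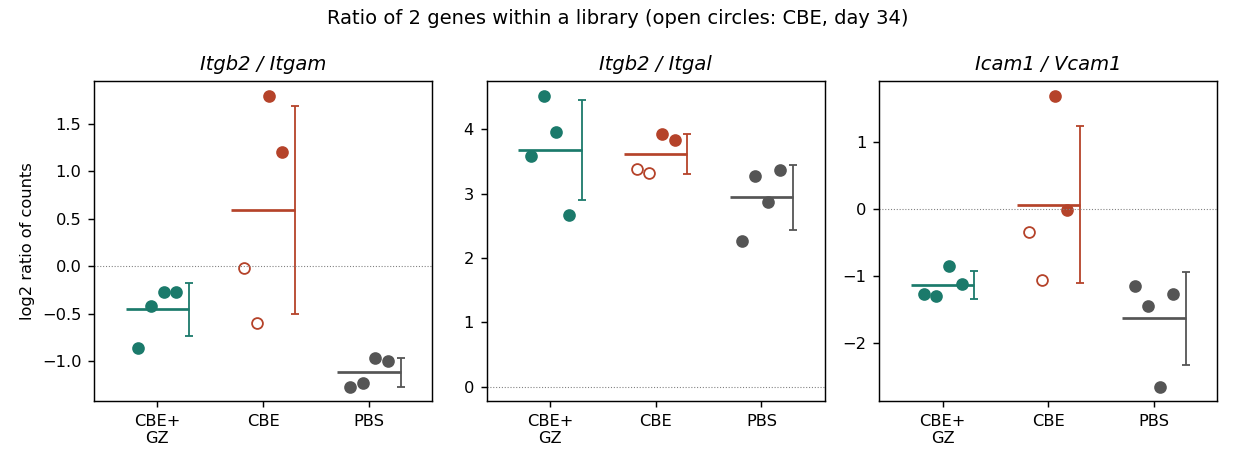
Log2 ratio of the counts of 2 genes within each library for Itgb2 to Itgam, Itgb2 to Itgal and Icam1 to Vcam1 in CBE+GZ-667161 (green), CBE (red, open circles for day 34) and PBS (grey), with group mean and SD. The day 40 CBE samples have the highest Itgb2 to Itgam ratios, at 1.80 and 1.20.

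The log2 ratio of Icam1 to Vcam1 was 0.06 ± 1.17 in CBE and -1.64 ± 0.69 in PBS (SD, n = 4 each), without overlap (exact permutation p = 0.029, adjusted 0.086). It was -1.14 ± 0.20 in CBE+GZ-667161, with a difference of -1.21 from CBE (exact permutation p = 0.057, adjusted 0.10). CBE replicate 4 had the highest value, at 1.69. For Itgb2 to Itgal, the chains of LFA-1, the difference between CBE and PBS was 0.67 (exact permutation p = 0.057, adjusted 0.10). It was 0.74 between CBE+GZ-667161 and PBS (exact permutation p = 0.17, adjusted 0.19). Between CBE+GZ-667161 and CBE it was 0.07 (exact permutation p = 0.86). With 2 to 4 counts of Itgal per PBS library, the 1 added to each count weighs on this ratio and makes it depend on depth.

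Markers of microglia moved with these genes, and their part in the results was not tested. Of 11 tested microglia markers 6 rose in CBE against PBS, 5 rose in CBE+GZ-667161 against PBS, and 0 passed in CBE+GZ-667161 against CBE in edgeR, DESeq2 or limma-voom, with 2 at an unadjusted p under 0.05 in edgeR. In CBE, Fcrls and Csf1r were lower at day 40 than at day 34 (log2 fold changes -1.61 ± 0.30 and -0.71 ± 0.15, edgeR adjusted p = 0.029 and 0.044), in the same libraries as Itgam. In that comparison 9 of 11 microglia markers were lower at an unadjusted p under 0.05 in edgeR. Of the 13372 genes tested there, 2021 had such a p in either direction. DESeq2 called 5 of the 11 markers lower and limma-voom 0. The B cell marker Ighm and the endothelial marker Ly6a were lower at day 40 as well (log2 fold changes -1.61 ± 0.33 and -1.29 ± 0.27, edgeR adjusted p = 0.041 and 0.044). Set against 1000 CPM of the 12 microglia markers, a scale chosen after the values were seen, Cd52 lay at 62.3 to 81.1 in CBE+GZ-667161, 57.8 to 76.5 in CBE and 10.7 to 20.2 in PBS. Cd52 thus stayed above PBS in all 8 samples on that scale. Itgam lay at 22.4 to 30.8 in CBE+GZ-667161, 10 and 12.7 in CBE of day 40, 17.3 and 21.0 in CBE of day 34 and 20.0 to 27.8 in PBS. The marker sum leaned on C1qa, a complement gene that itself rose, which gave 50.3% of its counts in CBE+GZ-667161, 55.6% in CBE and 33.8% in PBS. Per 1000 CPM of the other 11 markers Itgam lay at 50.5 to 62.8 in CBE+GZ-667161, 23.6 and 30.5 in CBE of day 40, 36.2 and 45.8 in CBE of day 34 and 29.1 to 41.6 in PBS. With C1qa in the sum 3 of the 4 CBE samples were below every PBS sample, and without it 1 was. Icam1 lay at 5.22 to 6.35 in CBE+GZ-667161, 5.60 to 20.5 in CBE and 3.31 to 6.58 in PBS. For Icam1 the 2 day 40 CBE samples, at 20.5 and 16.4, stood above all others, and without C1qa, at 48.2 and 39.5, they did so too. Without C1qa Icam1 lay at 9.34 to 14.3 in CBE+GZ-667161, at 12.2 and 15.9 in CBE of day 34 and at 4.96 to 10.3 in PBS. Itgb2 lay at 16.1 to 24.2 in CBE+GZ-667161, 35.4 and 29.3 in CBE of day 40, 17.1 and 13.8 in CBE of day 34 and 8.56 to 13.9 in PBS, so that 1 of the 8 samples given CBE fell within the PBS range. Without C1qa all 8 were above PBS, at 28.7 to 52.1 in CBE+GZ-667161, 30.1 to 83.3 in CBE and 13.8 to 20.8 in PBS. Cd52 was above PBS without C1qa as well, at 111 to 174 in CBE+GZ-667161, 131 to 184 in CBE and 17.2 to 29.8 in PBS. Ptprc lay at 6.80 to 9.30 in CBE+GZ-667161, 4.78 to 7.60 in CBE and 1.53 to 5.29 in PBS. Without C1qa Ptprc lay at 14.5 to 20.0 in CBE+GZ-667161, 10.9 to 17.1 in CBE and 2.46 to 7.93 in PBS. All 8 samples given CBE were then above PBS.

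**Figure D4:**
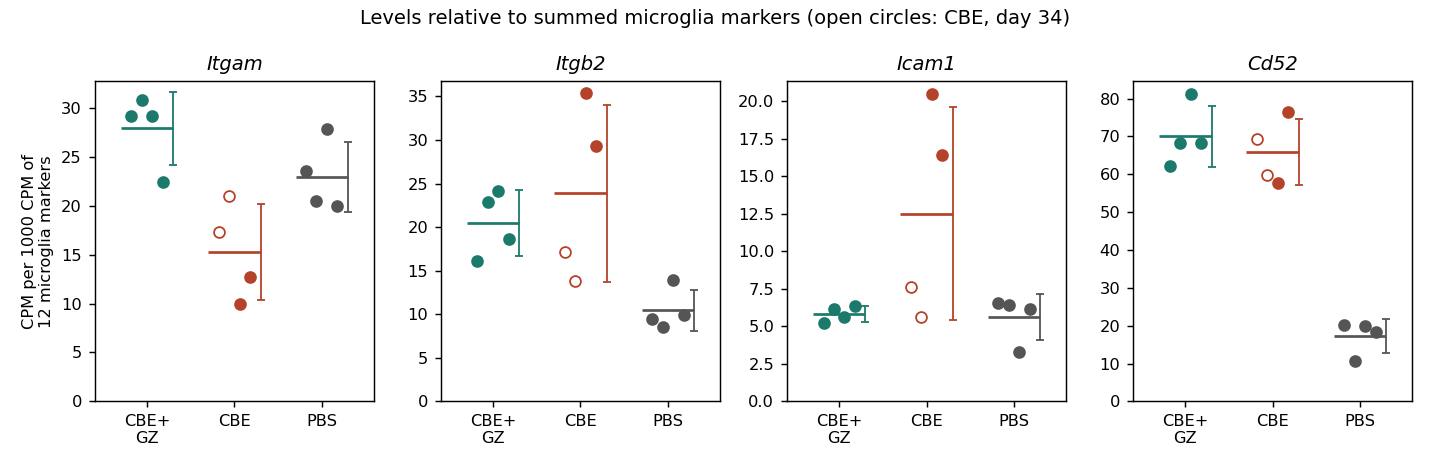
CPM of Itgam, Itgb2, Icam1 and Cd52 per 1000 CPM of 12 summed microglia markers in each sample of CBE+GZ-667161 (green), CBE (red, open circles for day 34) and PBS (grey), with group mean and SD. Cd52 at 57.8 to 81.1 in all samples given CBE is above PBS at 10.7 to 20.2, and Icam1 in CBE+GZ-667161 at 5.22 to 6.35 lies within the PBS range of 3.31 to 6.58, which without C1qa in the sum it partly exceeds.

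Other cell types were followed through their markers. Of 8 markers tested for T cells, B cells and neutrophils, 0 passed in any of the 3 group comparisons in edgeR. In CBE+GZ-667161 against PBS 2 had an unadjusted p under 0.05 in edgeR, both higher. Against CBE 3 had such a p, all higher in CBE+GZ-667161. In CBE against PBS 1 had such a p and was lower. Of the 12623 tested genes, 1658, 2085 and 3133 had such a p in these comparisons, in either direction. DESeq2 called 0 of the 8 in each comparison, and limma-voom called 1, in CBE+GZ-667161 against CBE. Thy1, which neurons also make, was among the markers tested but was left out of the T cell sum. Without it T cell markers summed to 37.7 to 101 CPM in CBE+GZ-667161, 24.4 to 56.6 CPM in CBE and 14.6 to 54.5 CPM in PBS. Trbc2 gave 982 of the 1227 counts of that sum in CBE+GZ-667161, 281 of 428 in CBE and 479 of 585 in PBS. Cd3d had 10 counts in CBE+GZ-667161, 0 in CBE and 2 in PBS. Natural killer cell markers did not pass the filter on low counts. Their 4 genes summed to 0.909 to 7.13 CPM in CBE+GZ-667161, 1.32 to 10.6 CPM in CBE and 0 to 1.06 CPM in PBS. These sums rested on 69, 36 and 10 counts, in libraries of unequal depth. Neutrophil markers summed to 8.91 to 37.5 CPM in CBE+GZ-667161, 2.22 to 13.6 CPM in CBE and 2.91 to 31.7 CPM in PBS. Of 3 tested monocyte markers Vcan rose in CBE against PBS, while Ly6c2 and Fn1 did not pass. In CBE+GZ-667161 against PBS 0 passed in edgeR, with 2 higher at an unadjusted p under 0.05, and DESeq2 called 1. The 3 markers summed to 35.9 to 56.1 CPM in CBE+GZ-667161, 29.6 to 52.2 CPM in CBE and 25.1 to 37.4 CPM in PBS. Of 4 tested border macrophage markers Ms4a7 rose in both comparisons with PBS. Among 14 endothelial markers 1 rose and 1 fell in CBE against PBS, namely Vwf (log2 fold change 1.13 ± 0.20, edgeR adjusted p = 0.0012) and Flt1 (-0.53 ± 0.14, edgeR adjusted p = 0.019), and Flt1 was higher in CBE+GZ-667161 than in CBE. Of 9 astrocyte markers 5 rose in CBE against PBS, and 4 were lower in CBE+GZ-667161 than in CBE, as was Icam1. Of choroid plexus and ependymal markers 1 of 4 rose, and of 5 erythroid markers 1 fell, both in CBE against PBS. The part of these cell types in the results was not tested.

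Other genes of the adhesion pathway were taken from lists chosen with earlier results of these data known. Of 2 tested members of the other leukocyte integrin chains, Itgax, which encodes the α chain of complement receptor 4, rose in both comparisons with PBS. It had a mean of 8.56 ± 1.18 CPM in CBE+GZ-667161, 8.60 ± 3.62 CPM in CBE and 0.43 ± 0.47 CPM in PBS (SD, n = 4 each; log2 fold changes to PBS 4.01 ± 0.51 and 4.0 ± 0.52, edgeR adjusted p = 7.9e-05 and 6e-05), with 9 counts over the PBS libraries. Of 11 other integrin chains 1 rose and 1 fell in CBE, Itgb5 by 0.77 ± 0.19 and Itgb4 with -1.33 ± 0.28 (edgeR adjusted p = 0.013 and 0.005). Both encode β chains that pair with α chains outside the leukocyte family. Of 13 other adhesion ligands, selectins and junction receptors 0 rose and 2 fell in CBE, Cd99l2 and Mcam with -0.42 ± 0.11 and -0.92 ± 0.27 (edgeR adjusted p = 0.02 and 0.039). In CBE+GZ-667161 against PBS 0 of those 13 passed in edgeR, DESeq2 or limma-voom, with 2 at an unadjusted p under 0.05 in edgeR. Icam1 and Vcam1 are not in that list.

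Intracellular partners of the integrins rose in part. Of 12 integrin activation genes 4 rose and 0 fell in CBE against PBS, with a list median log2 fold change of 0.11. Fermt3, which encodes kindlin-3 of blood cells and binds the tails of β chains, rose by 1.87 ± 0.23 (edgeR adjusted p = 2.9e-05). Apbb1ip, which encodes RIAM and links Rap1 to talin, rose by 1.79 ± 0.24 (edgeR adjusted p = 7.3e-05), and Fyb, an adaptor gene, by 2.45 ± 0.37 (edgeR adjusted p = 0.00024). The same 3 genes passed in CBE+GZ-667161 against PBS. Of 10 tested Src family kinases and partners of CD45 6 rose and 0 fell in CBE against PBS (median 1.5), among them Vav1, a guanine nucleotide exchange factor gene (2.15 ± 0.20, edgeR adjusted p = 1.7e-06) and Ptpn6, which encodes the phosphatase SHP-1 (2.72 ± 0.31, edgeR adjusted p = 1.5e-05). In CBE+GZ-667161 against PBS 4 of the 10 rose.

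Of 8 other pan-leukocyte genes 4 rose and 0 fell in both comparisons with PBS. In CBE against PBS, Laptm5, a lysosomal membrane protein gene, rose by 2.01 ± 0.14, Lcp1, which encodes L-plastin, by 1.95 ± 0.25, and the tetraspanin gene Cd37 by 2.22 ± 0.32 (edgeR adjusted p = 1.3e-07, 5.1e-05 and 0.00014). Of 9 genes that the transcription factor NF-κB can induce 6 rose in CBE against PBS and 4 in CBE+GZ-667161 against PBS. In CBE against PBS, the chemokine gene Ccl2 rose by 4.47 ± 0.54, Tnfaip2 by 3.36 ± 0.45 and Nfkb2 by 1.42 ± 0.23 (edgeR adjusted p = 2.9e-05, 7.2e-05 and 0.0005). The 12 genes of that list in the table summed to 145 to 156 CPM in CBE+GZ-667161. Their sum was 184 to 218 CPM in CBE and 93.4 to 109 CPM in PBS. The group means of Icam1, Itgb2, Itgal, Vcam1 and Cd52 had the same order, while those of Itgam, Itga4 and Ptprc did not. A part of NF-κB in these levels was not tested. Over the 9 tested genes of that list the median log2 fold change in CBE+GZ-667161 against CBE was -0.54. Over the 7 lists together 0 of 65 tested genes passed in edgeR in CBE+GZ-667161 against CBE, with 13 at an unadjusted p under 0.05. Of all 12623 tested genes, 2085 had such a p in that comparison. DESeq2 called 2 of the 65 genes and limma-voom 0.

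The genes with the most similar profile over the 12 samples were found by the root mean square difference between log2 CPM profiles, each centred on its own mean. For Itgam these were Lpcat2 and Bin2 (differences of 0.23 and 0.27 on the log2 scale). For Itgb2 they were Tlr13 and Cd300c2 (0.19 and 0.21), for Icam1 Il18bp and Cyba (0.32 and 0.35), and for Cd52 Bst2 and Usp18 (0.20 and 0.29). Cyba encodes a subunit of the phagocyte NADPH oxidase. For Ptprc they were Myo1f and Ccl6 (0.38 and 0.39), for Vcam1 Skap2 and Pigv (0.21 and 0.24), for Itgal Slc37a2 and Cela1 (0.22 and 0.28) and for Itga4 Tbata and Thnsl1 (0.34 and 0.36). Among the 8 genes themselves the closest pair was Itgam and Vcam1 (0.47), followed by Itgb2 and Ptprc (0.48).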

How the data were processed

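Whole-brain RNA of 12 samples was sequenced with a bulk form of MARS-seq, per the labels' protocols. For each gene symbol the authors deposited a whole-number count per library, without normalization. The build was mm10, and the tools named were DESeq2, HTSeq, HISAT 0.1.6 and cutadapt, per the submitters' processing notes. The deposited normalized signal equals the count times 1 constant per library (largest relative departure 6.58e-10) and served only for that check. The authors' deposited table of log2 fold changes and adjusted p-values was used only for the values credited to it.

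Of 16505 entries, 23 named dates and were left out (0.266% to 0.347% of a library's counts). Counts were filtered with filterByExpr (minimum count 10, minimum total 15), given TMM factors and compared by the quasi-likelihood test of edgeR 4.0.16 (glmQLFit, glmQLFTest; R 4.3.3) in 1 fit of the 3 groups of 4, or 4 groups for the days, at a Benjamini-Hochberg adjusted p under 0.05. Profiles used a prior count of 2. SE is the log2 fold change over the root of F. Alternatives were other scaling and filters, DESeq2 1.42.0, limma-voom (limma 3.58.1), 2 groups only, each day of CBE, an Xist term, the replicate number as a block and single libraries left out in turn. Scripts were tested on simulated counts with known changes. Ratios were tested in SciPy 1.17.1, plots made in matplotlib 3.10.9. Gene positions are GENCODE M21. All 8 genes were named, with up to 3 called genes of smallest p per pathway list (the most expressed where 0 passed) and the 2 nearest profiles per gene. A further gene that this rule names is not reported here. Genes and lists were chosen with earlier results of these data known.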

Additional observations from a re-analysis of the deposited data

Results flagged for a closer look

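In 132 sets of 4 samples (the genes named and the 3 ratios, in each group) 7 had a sample that stood apart from the other 3, where chance gives about 5%. CBE+GZ-667161 replicate 2 was the lowest of its group for Itgb2 (18.9 CPM), Cd300c2 (29.1 CPM), Tlr13 (5.45 CPM) and Bst2 (110 CPM). Cd300c2 and Tlr13 were picked as the nearest profiles to Itgb2, and Bst2 as the nearest to Cd52. A low value shared through such likeness is not a separate flag. CBE+GZ-667161 replicate 2 also had the lowest sum of microglia markers among the samples given CBE, at 1170 CPM. PBS replicate 4 was the highest of its group for Itgb2 (8.80 CPM) and the lowest for Mcam (12.1 CPM). PBS replicate 3 was the highest of its group for Cyba (33.0 CPM). Itgam differed between CBE samples of day 40 and day 34, with a log2 fold change of -1.43 (edgeR adjusted p = 0.028).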

How the results depend on the processing

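The calls of Cd52, Itgb2, Ptprc and Icam1 in CBE against PBS, and of Cd52, Itgb2, Ptprc and Itgam in CBE+GZ-667161 against PBS, held under every alternative run, with log2 fold changes of 3.30 to 3.90, 2.56 to 2.98, 2.23 to 2.93 and 2.13 to 2.96 in the first comparison. The number of the 8 genes called in CBE+GZ-667161 against CBE, 1 as reported, was 0 in a fit of the 2 groups alone, 0 with a term for Xist-high libraries, 0 with the day 34 CBE samples alone and 2 with those of day 40, and 0 to 1 when a library was left out. Between the days of CBE it was 0 in limma-voom, against 1 as reported, and 0 to 1 when a library was left out. The cause was not tested. Only 1 of 10 same-numbered pairs of samples had a correlation of deviations above 0.1, and 3 of 11 samples correlated best with their own number, so the numbers were not taken to pair samples. With the replicate number as a block, 6 of the 8 genes were called in CBE against PBS, and 947 of all tested genes. In CBE+GZ-667161 against PBS 4 of the 8 were called, and 404 of all tested genes. In CBE+GZ-667161 against CBE 0 of the 8 were called. For the log2 ratio of Itgb2 to Itgam, only the replicate numbers 2, 3 and 4 shared by CBE and PBS were paired. Their mean paired difference was 1.55, without CBE replicate 6 and PBS replicate 5. Over all genes, 56 were higher and 105 lower in CBE+GZ-667161 than in CBE, while 489 passed in DESeq2, 692 with day 40 CBE samples alone, 2 with day 34 alone, 31 in a fit of 2 groups, 82 with the block and 32 with the Xist term. Scaling moved the median of all genes by less than the 0.1 log2 that would call for a correction. Leaving C1qa out of the microglia sum, chosen after seeing the data, moved Itgb2, Icam1, Ptprc and Itgal of CBE above PBS in all samples on that scale. Itgal was not tested in the fits of 2 groups, and counts of Itgal and Itga4 limit what could be detected for them.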
